A study of Drosophila melanogaster with 12 samples.

Results

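The core of the Toll and Imd pathways was followed here as 10 genes, chosen by name from the textbook pathways: *spz*, *Tl*, *tub*, *pll*, *cact*, *dl* and *Dif* for the Toll arm, and *imd*, *key* and *Rel* for the Imd arm. All 10 were measured, each by 1 probe, among 12058 genes with a current symbol. The RNA came from wing imaginal discs, the primordia of the adult wing and notum, taken from larvae of the third instar of the DrosDel isogenic line labelled w118iso; 2iso; 3iso. Cut discs (C) had lost a posterior sector and intact discs (NC) were left whole, and both were cultured in the abdomen of recently eclosed Canton S females, while the 0-hour discs are labelled without a host. Cut discs were compared over the first period (C0→C24) and the second (C24→C72), and intact discs over the first period (NC0→NC24), with times in hours. Each of the 3 comparisons has 2 biological replicates and 4 arrays, since each replicate was hybridized in both dye orders. The host is an adult fly with its own blood cells and fat body, and no array sets cut directly against intact discs. The labels call the replicates biological and the methods name independent RNA extractions, without saying how many animals each holds, so the p-values measure the spread between these samples.

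Both pathways end in NF-κB transcription factors. In the Toll arm the cleaved ligand Spätzle binds the receptor Toll, the adaptor Tube and the kinase Pelle carry the signal, and the inhibitor Cactus is degraded, which frees Dorsal and Dif to enter the nucleus. In the Imd arm peptidoglycan receptors recruit the adaptor Imd, and the IκB kinase complex, of which Kenny is the regulatory subunit, leads to cleavage and nuclear entry of Relish. The targets include the antimicrobial peptide genes of fat body and blood cells. Dorsal and Toll also set the dorsoventral axis of the embryo.

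Each value sets the later time against the earlier one as a log2 ratio. It holds a change and not a level, so genes cannot be ordered by abundance and the labelled tissue cannot be checked by the presence of its markers. The median over all genes was -0.0125 for C0→C24, 0.025 for C24→C72 and -0.0025 for NC0→NC24. Calls required an adjusted p below 0.05 in limma together with a change of 1.5-fold or more, which is 0.58 on the log2 scale. Of all genes, 6.12% were called higher and 4.94% lower in C0→C24 (11.1% in all), 1.36% and 1.58% in C24→C72 (2.94%), and 5.14% and 3.85% in NC0→NC24 (8.99%). Of the 10 core genes 2 were called higher in C0→C24 (*spz* and *Rel*), 0 in C24→C72 and 2 in NC0→NC24 (*pll* and *Rel*), and 0 were called lower in any of them. At an unadjusted p under 0.05 the numbers of core genes were 5, 6 and 5, beside 35.6%, 25.7% and 32.6% of all genes. The 4 arrays of each comparison are shown gene by gene in the plot of single arrays.

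**Figure D1:**
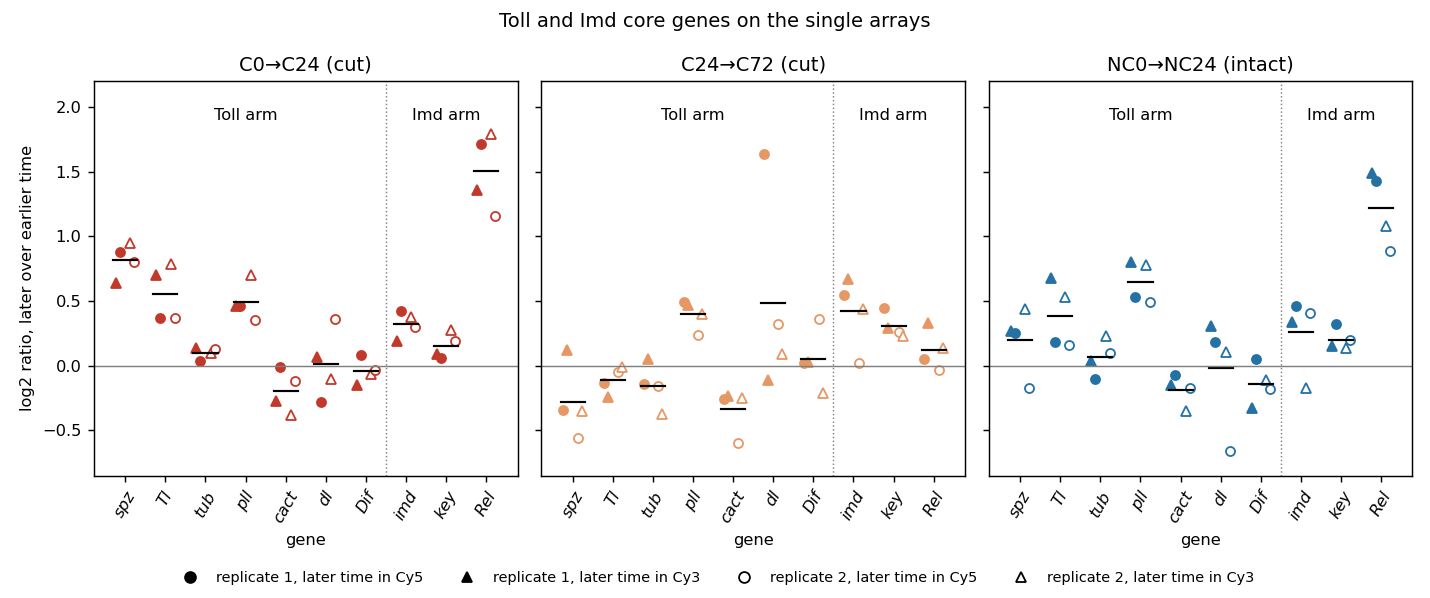
Log2 ratio (later over earlier time) of each core gene on every array, with a panel for each comparison. Circles mark arrays with the later time in Cy5, triangles those with it in Cy3, filled symbols replicate 1, open symbols replicate 2, and bars the mean of 4 arrays. *Rel* lies between 1.16 and 1.79 in C0→C24 and between 0.89 and 1.49 in NC0→NC24, above every other core gene, and 1 array of *dl* in C24→C72 stands at 1.64.

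Among the Imd genes, *Relish* (*Rel*), the NF-κB factor of the arm, rose in the first 24 hours in both kinds of disc. In C0→C24 its arrays read 1.36 and 1.71 in replicate 1 and 1.79 and 1.16 in replicate 2. In NC0→NC24 they read 1.49 and 1.43 in replicate 1 and 1.08 and 0.89 in replicate 2. All 8 arrays lie above 0, and the ranges of cut and intact discs overlap. The fitted change was 1.50 ± 0.11 (SE) in C0→C24, a 2.84-fold rise (95% interval 2.37 to 3.40, limma adjusted p = 4.13e-05), and 1.22 ± 0.11 in NC0→NC24, a 2.33-fold rise (1.95 to 2.80, adjusted p = 0.00017). With these values *Rel* stood at place 121 from the top in C0→C24 and 138 in NC0→NC24 among 12058 genes. From 24 to 72 hours the arrays of *Rel* read 0.05, 0.33, -0.03 and 0.14, close to 0 on both sides, and the change of 0.12 ± 0.11 was not called (adjusted p = 0.552).

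*immune deficiency* (*imd*), which encodes the adaptor of the arm, had smaller positive values throughout. Its arrays read 0.19, 0.42, 0.38 and 0.30 in C0→C24, then 0.55, 0.67, 0.02 and 0.44 in C24→C72, and 0.34, 0.46, -0.17 and 0.41 in NC0→NC24. A single array of the 12 is below 0. None of the fitted changes was called, at 0.32 ± 0.11 (adjusted p = 0.0649), 0.42 ± 0.11 (adjusted p = 0.0515) and 0.26 ± 0.11 (adjusted p = 0.145) in that order. Without replicate 2 of C24→C72 the value for that period was 0.61 and was called (adjusted p = 0.0366). *kenny* (*key*), the gene of the regulatory subunit of the IκB kinase, was above 0 on all 12 arrays, from 0.06 to 0.28 in C0→C24, from 0.23 to 0.45 in C24→C72 and from 0.14 to 0.32 in NC0→NC24. Its changes of 0.15 ± 0.09, 0.31 ± 0.09 and 0.20 ± 0.09 stayed short of the call, with adjusted p-values of 0.246, 0.0583 and 0.138 in limma.

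At the head of the Toll arm *spätzle* (*spz*), the gene of the ligand, rose in cut discs over the first 24 hours. Its arrays read 0.64 and 0.88 in replicate 1 and 0.95 and 0.80 in replicate 2 of C0→C24, against 0.27, 0.25, 0.44 and -0.17 in NC0→NC24. The cut arrays all lie above the intact ones, an arrangement that 2.53% of all genes share, with the reverse in 2.56%. No other core gene has arrays that do not overlap between cut and intact discs. The fitted rise was 0.82 ± 0.10 (SE) in C0→C24, or 1.76-fold (95% interval 1.50 to 2.07, limma adjusted p = 0.000439). In NC0→NC24 the value was 0.20 ± 0.10 (adjusted p = 0.222). Between 24 and 72 hours 3 of 4 arrays were below 0 (-0.34, 0.12, -0.56 and -0.35), and the change of -0.28 ± 0.10 was not called (adjusted p = 0.122). The 24-hour RNA of cut discs takes part in both of these comparisons, as the later sample of the one and the earlier sample of the other.

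*Toll* (*Tl*), the receptor gene, was above 0 on all 8 arrays of the first period. It read 0.70, 0.37, 0.79 and 0.37 in C0→C24 and 0.68, 0.18, 0.53 and 0.16 in NC0→NC24. The arrays with the later time in Cy3 gave the higher values, on average 0.74 against 0.37 with the later time in Cy5 in C0→C24, and 0.60 against 0.17 in NC0→NC24. Each replicate holds both dye orders, so a dye term in the fit could not move the fitted changes and does not test this gap. The fitted changes passed the adjusted p in limma (0.56 ± 0.08, adjusted p = 0.0012 and 0.39 ± 0.08, adjusted p = 0.00983), but at 1.47-fold and 1.31-fold they are smaller than 1.5-fold and so not called. In C24→C72 *Tl* was at -0.11 ± 0.08 (adjusted p = 0.463), with all 4 arrays between -0.24 and -0.01.

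Below the receptor the kinase gene and the adaptor gene differed. *pelle* (*pll*), which encodes the kinase, was above 0 on all 12 arrays: 0.46, 0.46, 0.70 and 0.35 in C0→C24, 0.49, 0.47, 0.24 and 0.40 in C24→C72, and 0.80, 0.53, 0.78 and 0.49 in NC0→NC24. The values of the 3 comparisons overlap, and those of intact discs reach highest. In NC0→NC24 *pll* rose by 0.65 ± 0.08, or 1.57-fold (95% interval 1.38 to 1.79, limma adjusted p = 0.000709). In C0→C24 the change was 0.49 ± 0.08 (adjusted p = 0.00229) and in C24→C72 0.40 ± 0.08 (adjusted p = 0.021), each past the adjusted p and short of 1.5-fold. *tube* (*tub*), the gene of the adaptor that docks Pelle at the receptor, stayed within 0.37 of 0 on all arrays. Its fitted changes were 0.10 ± 0.09 for C0→C24, -0.15 ± 0.09 for C24→C72 and 0.07 ± 0.09 for NC0→NC24, with adjusted p-values from 0.334 to 0.693.

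At the end of the arm stand the inhibitor gene and the genes of the factors that it holds back. *cactus* (*cact*), the IκB of the fly and itself known as a target of Toll signalling, was below 0 on all 12 arrays. It ranged from -0.38 to -0.01 in C0→C24, from -0.60 to -0.23 in C24→C72 and from -0.35 to -0.07 in NC0→NC24. Its changes of -0.20 ± 0.09, -0.34 ± 0.09 and -0.18 ± 0.09 were not called, with adjusted p-values of 0.156, 0.0513 and 0.191 in limma. *Dorsal-related immunity factor* (*Dif*), the main NF-κB factor of the adult Toll response, was at -0.04 ± 0.08, 0.05 ± 0.08 and -0.14 ± 0.08, and its arrays fall on both sides of 0 in each comparison. *dorsal* (*dl*), which patterns the embryo, varied most between arrays. It read 0.07, -0.28, -0.10 and 0.36 in C0→C24, 1.64, -0.11, 0.32 and 0.09 in C24→C72, and 0.31, 0.18, 0.11 and -0.66 in NC0→NC24. The 2 replicate means were 0.77 and 0.20 in C24→C72 and 0.24 and -0.28 in NC0→NC24, so the replicates differ by about as much as any fitted change. The fitted change of *dl* in C24→C72, 0.48 ± 0.16, was not called (adjusted p = 0.0929).

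**Figure D2:**
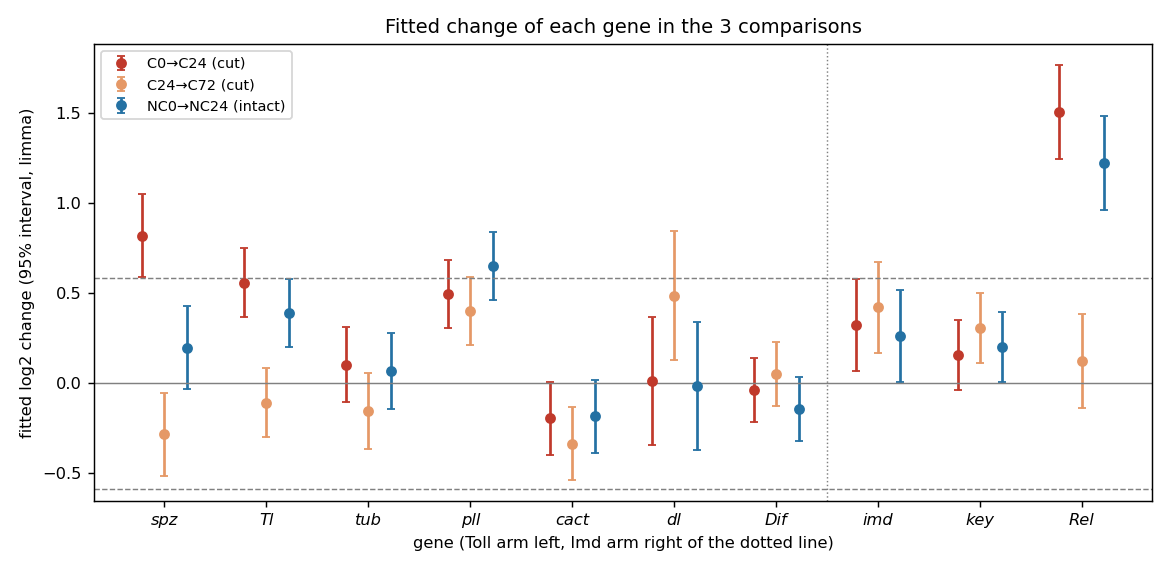
Fitted log2 change of each core gene with its 95% interval from limma, for the 3 comparisons side by side. Dashed lines mark 1.5-fold in either direction. *Rel* lies beyond the upper line with its whole interval in C0→C24 (1.24 to 1.77) and NC0→NC24 (0.96 to 1.48), while *spz* does so in C0→C24 alone (0.59 to 1.05).

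Set side by side, the Toll arm had 1 of 7 genes called higher in C0→C24 (*spz*), 0 of 7 in C24→C72 and 1 of 7 in NC0→NC24 (*pll*). The Imd arm had 1 of 3, 0 of 3 and 1 of 3, each time *Rel*. By the adjusted p alone, without a fold threshold, 3 of 7 Toll genes and 1 of 3 Imd genes were higher in C0→C24, beside 13.9% of all genes higher and 26.7% in either direction. In C24→C72 it was 1 of 7 and 0 of 3, beside 5.36% and 9.09%, and in NC0→NC24 2 of 7 and 1 of 3, beside 12.0% and 22.3%. The median of the Toll arm was 0.10 for C0→C24, -0.11 for C24→C72 and 0.07 for NC0→NC24, with members from -0.20 to 0.82, from -0.34 to 0.49 and from -0.18 to 0.65. The median of the Imd arm was 0.32, 0.31 and 0.26, with members from 0.15 to 1.50, from 0.12 to 0.42 and from 0.20 to 1.22. All 3 Imd genes thus had positive fitted changes in every comparison, whereas the 7 Toll genes had 5, 3 and 4 above 0. In replicates 1 and 2 the Toll median was 0.09 and 0.13 in C0→C24, -0.045 and -0.03 in C24→C72, and 0.245 and 0.135 in NC0→NC24. The Imd median was 0.305 and 0.34, 0.37 and 0.23, and 0.40 and 0.17 in the same order. The Toll medians of the fitted changes in C24→C72 and NC0→NC24 thus lie outside those of both replicates. In replicate 2 of NC0→NC24 the arms were close. In C0→C24, 7 of the 10 core genes were above 0 on all 4 arrays, as were 22.5% of all genes, and 1 (*cact*) was below 0 on all 4, as were 21.8%. In C24→C72 the numbers were 3 above (*pll*, *imd* and *key*; 16.8% of all genes) and 2 below (*Tl* and *cact*; 11.4%), and in NC0→NC24 4 above (*Tl*, *pll*, *key* and *Rel*; 22.3%) and 1 below (*cact*; 20.8%). With 7 and 3 genes, no test was made between the arms.

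Whether cutting added to the effect of implantation was asked through the difference C0→C24 minus NC0→NC24, to which the 0-hour RNA of both kinds of disc contributes. None of the 10 core genes was called in limma, with or without the fold threshold, beside 0.0746% of all genes (0.0581% higher and 0.0166% lower in cut discs), and 1 core gene, *spz*, had an unadjusted p under 0.05, beside 5.94% of all genes. The difference for *spz* was 0.62 ± 0.14 (95% interval 0.29 to 0.95), at place 98 of 12058 from the top, with an unadjusted p of 0.00209 and an adjusted p of 0.248. Over the alternatives tried its adjusted p ran from 0.131 to 0.925. For *Rel* the difference was 0.28 ± 0.16 (-0.09 to 0.65, adjusted p = 0.962), and for *Tl* 0.17 ± 0.12 (-0.10 to 0.44, adjusted p = 0.995). *pll* had the lowest value, -0.16 ± 0.12 (-0.42 to 0.11). The other 6 genes lay between -0.05 and 0.10, and the interval of *dl* was the widest, from -0.48 to 0.53. The upper ends of the intervals lie at 1.93-fold for *spz*, 1.57-fold for *Rel*, 1.44-fold for *dl*, 1.35-fold for *Tl* and 1.34-fold for *imd*.

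**Figure D3:**
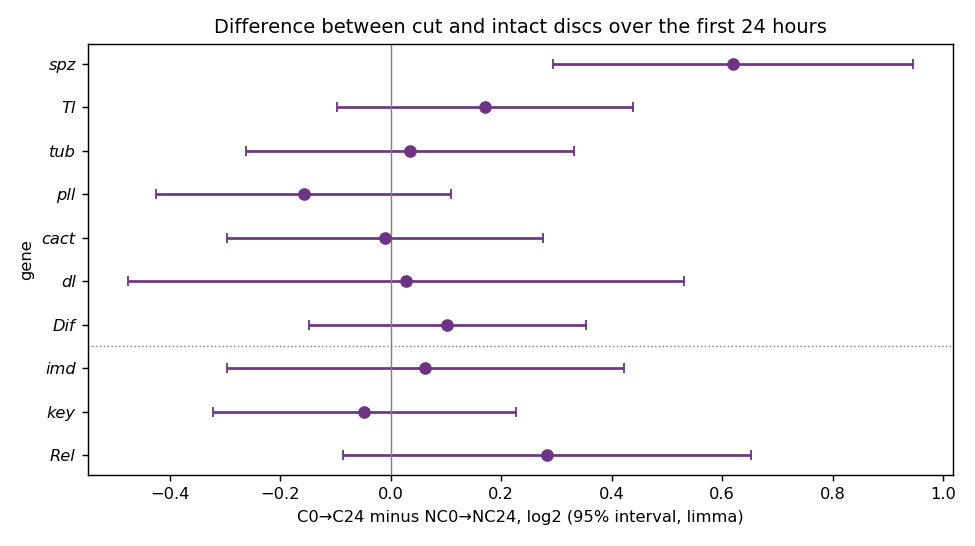
Difference in log2 change between cut discs (C0→C24) and intact discs (NC0→NC24) for each core gene, with 95% intervals from limma. Points right of 0 were higher in cut discs. The interval of *spz*, 0.29 to 0.95, is the only one of the 10 that does not include 0.

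Over the whole course in cut discs the changes of both periods were added, since no array sets 72 hours directly against 0 hours. Of the core genes 3 were called higher, *pll*, *imd* and *Rel*, beside 9.43% of all genes, and 0 lower, beside 7.4% (16.8% in all). Over the same course 10 of 13 hemocyte markers (median 0.90) and 3 of 9 fat body markers (median 0.76) were called higher and 4 of 16 wing disc markers lower (median -0.24). Their part in the values of the core genes was not tested. *Rel* stood at 1.63 ± 0.16, or 3.09-fold (limma adjusted p = 0.00021), with 1.50 of it from the first period. *pll* reached 0.89 ± 0.12, or 1.86-fold (adjusted p = 0.000755), from 0.49 and 0.40. *imd* reached 0.74 ± 0.16, or 1.67-fold (adjusted p = 0.00866), from 0.32 and 0.42. The call of *imd* ended without replicate 1 of C0→C24 (0.76, adjusted p = 0.0647), without its replicate 2 (0.72, adjusted p = 0.0666) and without replicate 1 of C24→C72 (0.55, below 1.5-fold). The sums for *spz* (0.54 ± 0.14), *Tl* (0.45 ± 0.12), *key* (0.46 ± 0.12) and *cact* (-0.53 ± 0.13) passed the adjusted p (from 0.0145 to 0.0246) and were smaller than 1.5-fold. Without replicate 2 of C24→C72 the sums for *spz* (0.71) and *dl* (0.78) were called too, and without replicate 1 that for *cact* (-0.62). *dl* (0.50 ± 0.22), *tub* (-0.05 ± 0.13) and *Dif* (0.01 ± 0.11) did not pass. The inhibitor *cact* is thus the single core gene with a negative sum past the adjusted p, beside 6 with a positive one (25.3% of all genes passed in either direction, 14.0% higher). At an unadjusted p under 0.05, 7 of the 10 passed, beside 36.2% of all genes.

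**Figure D4:**
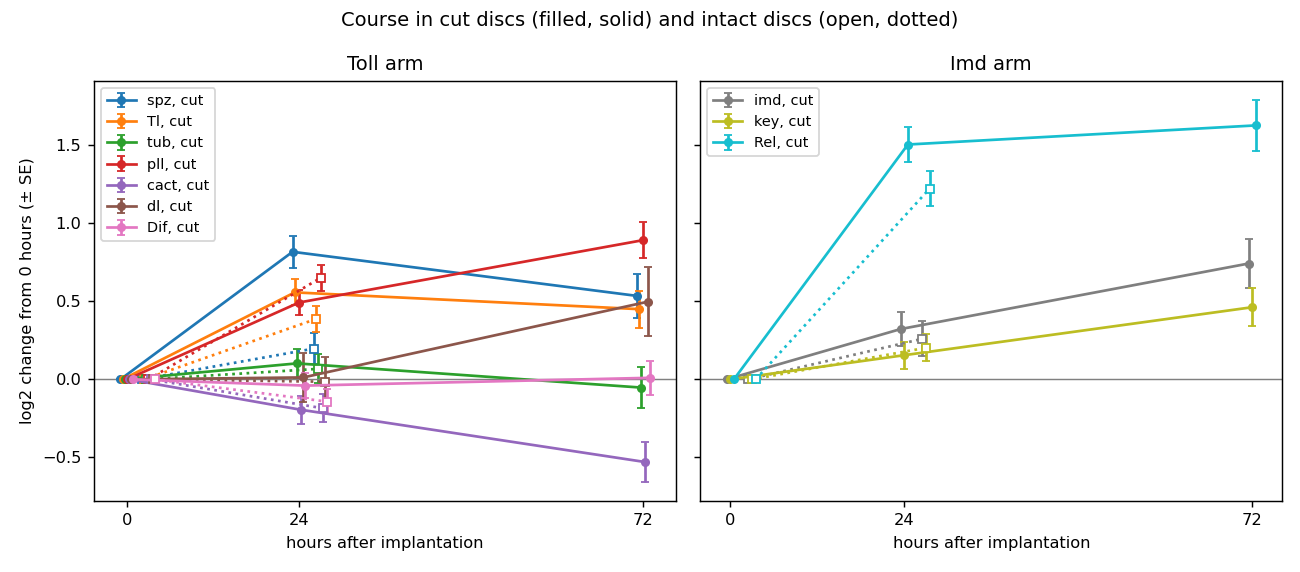
Log2 change from 0 hours in cut discs (filled, solid lines, at 24 and 72 hours) and in intact discs (open, dotted lines, at 24 hours), with the Toll arm in the left and the Imd arm in the right panel. Error bars are standard errors from limma and points are shifted sideways for clarity. *Rel* reaches 1.50 by 24 hours and 1.63 by 72 hours, *pll* stands at 0.49 and then 0.89, *imd* at 0.32 and 0.74, and *spz* at 0.82 and 0.54. Neither *pll* nor *imd* was called in C0→C24 or in C24→C72 alone.

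The genes closest to the called core genes over the 6 replicate means were named by their Euclidean distance on the log2 scale. *GstO1*, an omega-class glutathione transferase gene, was closest to *Rel* (distance 0.29), with 1.44 for C0→C24, 0.02 for C24→C72 and 1.31 for NC0→NC24, followed by *QC*, a glutaminyl cyclase gene (0.38), and *CG42369* (0.38). Nearest to *spz* were *yellow-g* (0.23), of the yellow family, *vir-1* (0.25), a gene known for its induction by virus infection, and *Pdp1* (0.27), which encodes a bZIP factor of the circadian clock. *CG6607* (0.18), *CG11141* (0.19) and *Arp8* (0.21), an actin-related protein gene, lay nearest to *pll*. None of these 9 is among the core genes.

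The other genes of both pathways fall into 5 lists with 61 measured genes. Of these, 7 were called in either direction in C0→C24 (11.5%, beside 11.1% of all genes), 4 in C24→C72 (6.56%, beside 2.94%) and 5 in NC0→NC24 (8.2%, beside 8.99%). All 4 calls in C24→C72 (*wbl*, *spz3*, *PGRP-LF* and *Diap2*) were lost when that comparison was fitted alone (limma adjusted p from 0.0754 to 0.129). Of 16 genes of Toll recognition and of the protease cascade that cleaves Spätzle, 2 rose and 1 fell in C0→C24, 0 and 1 in C24→C72, and 1 and 1 in NC0→NC24. *Hayan*, a protease of the cascade, rose by 0.84 in C0→C24 and by 0.93 in NC0→NC24, and *necrotic* (*nec*), a serpin that restrains the cascade, rose by 0.86 in C0→C24 (limma adjusted p = 0.000633, 0.000551 and 0.000616). *windbeutel* (*wbl*) was the member called lower in all 3 comparisons, at -3.30 for C0→C24, -0.65 for C24→C72 and -3.16 for NC0→NC24. Its call in C24→C72 was lost in 5 of 19 alternatives, with the value at -0.47 without replicate 2 of that comparison (adjusted p = 0.0708). Its product is a chaperone of the endoplasmic reticulum with a role in the ventral cue of the egg chamber. Of 10 paralogs of Spätzle and Toll, *spz6* fell in C0→C24 (-1.21, adjusted p = 7.61e-05) and *spz3* in C24→C72 (-0.88, adjusted p = 0.00243), and 0 rose. The call of *spz3* was lost when C24→C72 was fitted alone (adjusted p = 0.0754). In intact discs *spz6* was at -0.39 (adjusted p = 0.0292, smaller than 1.5-fold), and the cut-minus-intact value of -0.82 was not called (adjusted p = 0.133). Of 12 other cytoplasmic Toll genes 1 was called in these 3 comparisons, *Pellino* (*Pli*), which encodes a ubiquitin ligase that acts with Pelle and fell in NC0→NC24 (-0.75, adjusted p = 0.0012). Over the whole course 13 of the 61 genes of the 5 lists were called (21.3%, beside 16.8% of all genes). Of these, 7 were higher and 6 lower, beside 9.43% and 7.4% of all genes. In the Toll lists *wbl* (-3.95), *spz6* (-1.63), *Pli* (-0.78), *spz3* (-0.69) and the Toll paralog *18w* (-0.62) were called lower, and *Hayan* (0.98), *Uba2* (0.63), of the SUMO pathway, and *nec* (0.61) higher (limma adjusted p from 1.16e-05 to 0.0232). The whole-course calls of *Pli*, *18w*, *spz3* and *nec* were lost without replicate 1 of C0→C24 (-0.63, -0.56, -0.71 and 0.53). Those of *spz3* and *nec* were also lost without its replicate 2 (-0.67 and 0.69), that of *nec* without replicate 1 of C24→C72 (0.50) and that of *Uba2* without replicate 2 of C24→C72 (0.58).

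On the Imd side 1 of 6 peptidoglycan recognition genes was called higher in C0→C24 and in C24→C72 (6.12% and 1.36% of all genes) and 0 in NC0→NC24. *PGRP-LF*, whose product blocks the signalling receptor of the pathway, rose by 1.12 in C0→C24 (limma adjusted p = 0.000134) and by 0.71 in C24→C72 (adjusted p = 0.0073), and its value in NC0→NC24 was 0.50 (adjusted p = 0.011, smaller than 1.5-fold). Its call in C24→C72 was lost without replicate 1 of that comparison (0.54, adjusted p = 0.0566). Of 17 other cytoplasmic Imd genes, 2 rose and 0 fell in C0→C24, 1 and 0 in C24→C72, and 1 and 1 in NC0→NC24, beside 5.14% of all genes higher and 3.85% lower in the last. *Diap2*, the ubiquitin ligase that modifies Imd and its partners, rose in all 3 comparisons, by 1.44 over C0→C24, 0.77 over C24→C72 and 1.63 over NC0→NC24 (adjusted p = 3.42e-05, 0.0042 and 4.97e-05). Fitted alone, C24→C72 gave neither *PGRP-LF* nor *Diap2* a call (adjusted p = 0.114 and 0.0847). *dnr1*, an inhibitor of the caspase Dredd, rose by 0.64 in C0→C24 (adjusted p = 0.00139), and *Uev1A*, part of the enzyme that builds ubiquitin chains, fell in NC0→NC24 (-0.61, adjusted p = 0.00317). The call of *dnr1* was lost without replicate 1 of C0→C24 (0.59, adjusted p = 0.0548) and that of *Uev1A* without replicate 1 of NC0→NC24 (-0.48, adjusted p = 0.0921). Over the whole course *Diap2* (2.22), *PGRP-LF* (1.84), *Charon* (0.94), which encodes a partner of Relish, and *dnr1* (0.71) were called higher and *Uev1A* lower (-0.80), with adjusted p-values from 6e-05 to 0.00596. There the call of *dnr1* was lost without replicate 1 of C0→C24 (0.66) or replicate 2 of C24→C72 (0.54), and that of *Uev1A* without replicate 2 of C0→C24 (-0.72). The medians of the 2 Imd lists in C0→C24 were 0.30 and 0.18, and those of the 3 Toll lists 0.01, -0.03 and -0.18, beside -0.01 over all genes. In C24→C72 the Imd medians were -0.03 and 0.04 and the Toll medians 0.02, -0.08 and 0.09, beside 0.025 over all genes. In NC0→NC24 the Imd medians were 0.29 and 0.16 and the Toll medians 0.11, -0.13 and -0.18, beside -0.0025. The Imd lists thus did not lie above all Toll lists in C24→C72.

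**Figure D5:**
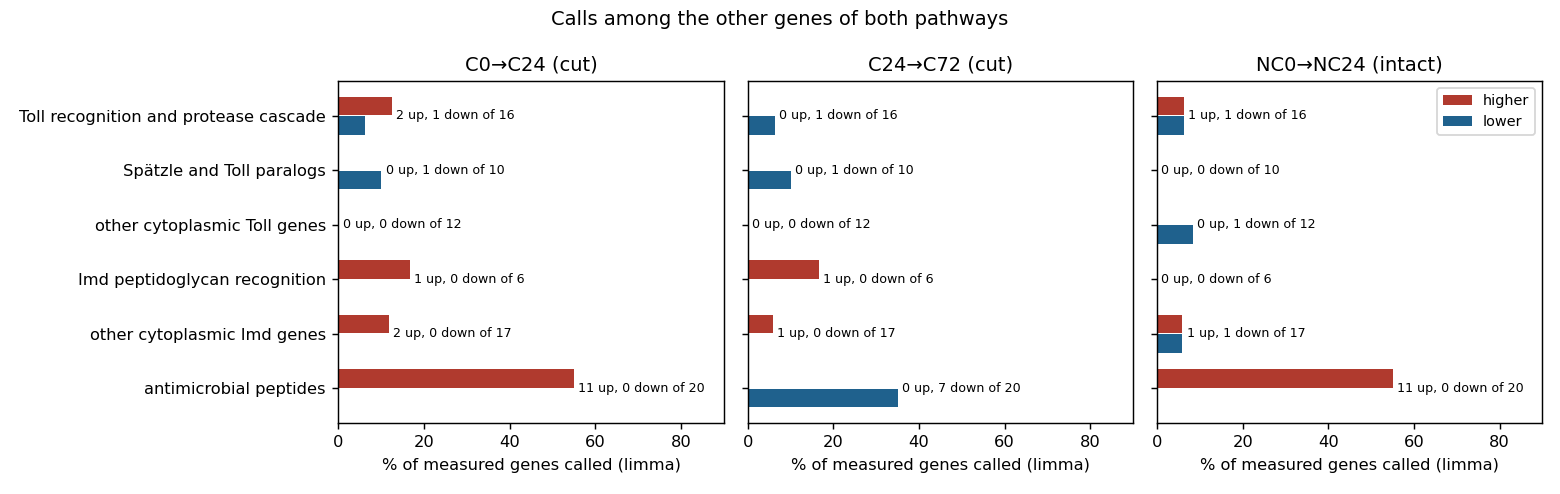
Share of the measured genes of each list called higher or lower in the 3 comparisons, in percent, with the counts written beside the bars. Antimicrobial peptide genes have 11 of 20 higher in C0→C24 and in NC0→NC24 and 7 of 20 lower in C24→C72. Each pathway list has at most 2 called higher and at most 1 called lower in a comparison.

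Of 20 antimicrobial peptide genes, which are targets of both arms, 11 rose in C0→C24, 7 fell in C24→C72 and 11 rose in NC0→NC24 (6.12%, 1.58% and 5.14% of all genes). *Def*, the gene of an antibacterial defensin, was at 2.15, -2.14 and 2.19, and *Mtk*, that of an antifungal peptide, at 2.12, -1.29 and 1.78, all of them called (limma adjusted p from 1.14e-05 to 0.00285). *BomT2* was at 2.19, -0.30 and 1.41 and *BomS6* at 2.705, -0.005 and 1.88. Both were called in C0→C24 and NC0→NC24 but not in C24→C72. Over the interval from 24 to 72 hours the core genes ran from -0.335 (*cact*) to 0.485 (*dl*), with 0 called. *Rel* was at 0.12, *Dif* at 0.05 and *spz* at -0.28, and *pll*, at 0.40, alone passed the adjusted p in limma (0.021). Over the whole course 7 of the 20 peptide genes were called higher, beside 9.43% of all genes, and 0 lower. *BomS6* stood at 2.70 and *BomT2* at 1.89. *Drs*, at 1.41, and *Def*, at 0.01, were not called (limma adjusted p = 0.157 and 0.973). The whole-course call of *Mtk* (0.83) was lost in 6 of 19 alternatives.

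Markers of other tissues were set beside these values. Of 13 hemocyte markers 6 rose over C0→C24, 1 over C24→C72 and 2 over NC0→NC24 (6.12%, 1.36% and 5.14% of all genes), with medians of 0.52, 0.17 and 0.13. *Hml*, the gene of hemolectin, was at 1.44 in C0→C24 and 0.64 in NC0→NC24, where its call was lost without replicate 2 (0.57). *crq* was at 1.55 in C0→C24 and 1.11 in NC0→NC24, both called, and at -0.33 in C24→C72. *NimC1* was called in C0→C24 (0.875) and not in NC0→NC24 (0.33). Of 9 fat body markers 4 rose in C0→C24, 2 fell in C24→C72 (1.58% of all genes) and 1 rose in NC0→NC24, with medians of 0.29, -0.29 and 0.19. In C24→C72 the hemocyte marker *PPO2* was at 0.96 and the fat body markers *Lsp2* and *Fbp2* at -2.20 and -0.76, all called. In that comparison 4 of the 9 fat body markers were above 0, the highest at 1.86, and 0 were called higher. The calls of *PPO2* and *Fbp2* were lost when C24→C72 was fitted alone (limma adjusted p = 0.0972 and 0.0846). The call of *Lsp2* in C24→C72 was lost with robust moderation in limma (adjusted p = 0.0562) and without replicate 1 of that comparison (-1.98). Of 16 genes that pattern the wing disc 2 fell in C0→C24 (*nub* and *ara*, beside 4.94% of all genes), with *ara* not called when replicate 2 was left out (-0.55), and 0 were called in C24→C72 and NC0→NC24. The medians of this list were -0.18, -0.06 and -0.19. Of 8 myoblast and muscle markers 1 rose in C0→C24 and in NC0→NC24 (*Mlc2*, at 1.11 and 1.22), beside 6.12% and 5.14% of all genes. *Mp20* fell in NC0→NC24 (-0.68, beside 3.85% of all genes lower), and 0 were called in C24→C72. The medians of the muscle list were 0.115, 0.08 and 0.10. The call of *Mp20* was lost when NC0→NC24 was fitted alone (limma adjusted p = 0.0541) and without its replicate 1 (-0.375).

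In the difference between C0→C24 and NC0→NC24, where *spz* was at 0.62, the hemocyte list had a median of 0.44 and 12 of 13 members above 0, and the fat body list a median of 0.36 and 6 of 9 above 0. Called were *eater*, a phagocytosis receptor gene (1.29), *He* (1.01) and *fat-spondin* (0.99), with limma adjusted p-values of 0.0268, 0.0404 and 0.0404, beside 0.0746% of all genes. *eater* stood at 1.43 in C0→C24 and 0.14 in NC0→NC24, and *He* at 0.47 and -0.53. All 3 calls were lost with the replicate block and without any 1 replicate of C0→C24 or NC0→NC24, when the values ran from 1.21 to 1.37 for *eater*, from 0.98 to 1.03 for *He* and from 0.90 to 1.07 for *fat-spondin*, with adjusted p-values of up to 0.475. *Lsp2* (2.36), *apolpp* (1.43) and *Fbp2* (1.07), also fat body markers, had differences above that of *spz* and were not called (adjusted p = 0.218, 0.146 and 0.0622). The part of these tissues in the values of the core genes was not tested, and in such bulk RNA fewer cells of a type and less RNA per cell cannot be told apart.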

How the data were processed

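The deposited values are log2 ratios from 12 two-colour oligonucleotide arrays, which the authors scanned with GenePix software and normalized for each set of 4 arrays with the mad method of OLIN before using limma. The background correction, the version of limma and the log base are not given in the sources used here, and base 2 is inferred. Dye-swapped arrays correlate positively (r from 0.20 to 0.84 across genes), which shows that their signs had been turned to 1 common direction. That direction was read as later over earlier, following the signs of the transcription factors that the study lists as rising or falling.

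Of 16416 probes, 13164 have 1 symbol, 101 several and 3151 none. Symbols were updated by gene identifier (12533 probes) or accession (120) with the Release 6 gene table, used for names alone, or kept as deposited (511). Probes of a gene were averaged, then the dye-swapped arrays, and the 6 replicate means entered a linear model with 3 group means in limma 3.58.1 under R 4.3.3, adjusted after Benjamini-Hochberg over 12058 genes. SE and 95% intervals are the moderated ones. The steps were tested on simulated data. There are no intensities, so spots near background cannot be told apart and low values were not filtered. The number of arrays limits the precision.

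The members and gene lists were chosen with earlier results of these data known. All core genes are named, with the 3 nearest genes of each called one. Of each list the text draws on the called genes, at most 4 a comparison with the smallest adjusted p, and not all of these are printed. A total of 19 alternatives were run, on thresholds, replication, pairing, scaling, probes, moderation and left-out replicates. Same-numbered replicates deviate with r of -0.12, -0.08 and 0.02 between comparisons and were not paired.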

Additional observations from a re-analysis of the deposited data

Results flagged for a closer look

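Of 30 sets of 4 arrays (10 core genes in 3 comparisons), 1 held an array far from the other 3. In C24→C72 *cact* read -0.60 on 1 array of replicate 2, whereas the other 3 read -0.26, -0.23 and -0.25. The gap makes up 0.919 of the range, above Dixon's 95% critical value for 4 values. Chance flags about 1 such set in 20.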

How the results depend on the processing

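Of the 10 core genes, 2 were called in C0→C24, 0 in C24→C72, 2 in NC0→NC24, 0 in the difference between cut and intact discs and 3 over the whole course. At 2-fold 1 remained (*Rel*) in C0→C24, in NC0→NC24 and over the whole course. By adjusted p alone there were 4 in C0→C24, 1 in C24→C72 and 7 over the whole course. Leaving out a replicate gave 0 to 1 in C24→C72 and 2 to 5 over the whole course, where the larger numbers came without replicate 2 of C24→C72. The replicate block left the counts at 2, 0, 2, 0 and 3, also with its sign reversed in C24→C72, and changed no call of a core gene. Same-numbered replicates did not deviate together. *Rel* kept its calls in C0→C24, in NC0→NC24 and over the whole course in all 19 alternatives.

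Signs turned for values of at most 0.07. With median-centred arrays the sum for *Dif* was -0.01, against 0.01. When replicates were left out, *tub* ran from -0.03 to 0.165 in NC0→NC24, from -0.0625 to 0.1325 in the difference and from -0.1625 to 0.0575 over the whole course. *dl* ran from -0.105 to 0.13 in C0→C24, from -0.275 to 0.245 in NC0→NC24 and from -0.2325 to 0.2875 in the difference, and *Dif* from -0.015 to 0.035 over the whole course. In the difference *cact* ran from -0.085 to 0.065, *imd* from -0.0775 to 0.2025 and *key* from -0.1275 to 0.0325. Replicates agreed least in C24→C72, where the 2 replicate means correlate at 0.533 across genes, beside 0.896 in C0→C24 and 0.850 in NC0→NC24.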
